A study of Saccharomyces cerevisiae with 10 samples.

Results

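Day 3 of a yeast evolution experiment, the first sampled day under selection, was compared with Day 0, the population before selection. The 4 ATAC-seq libraries of these days, out of 10 in the series, were used, and all 3515 merged peaks were tested. Each day had 2 libraries, d3 and d3p on Day 3 and d0b and d0c on Day 0. ATAC-seq cuts accessible DNA with the Tn5 transposase, so that open chromatin gives more reads. Day 3 is the evolved WP35 population and Day 0 the WP35 population before it was evolved. Both share the strain, a haploid W303 MATalpha yeast with the GAL1 promoter driving YFP at the ho locus. By the methods it also carries mutant alleles of leu2, trp1, can1, ura3, ade2 and his3. In the evolution experiment the cells with the lowest YFP among those that expressed it were sorted and passed on each day, during the first week only. The frozen populations of 1 evolution replicate were revived and grown in synthetic complete medium with 0.1% mannose for 22 hours. They were then grown for a further 24 hours with 0.1% mannose and 0.2% galactose. The p-values therefore measure the spread between libraries of 1 evolved line, which may be technical.

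Galactose genes are switched on when galactose-bound Gal3 draws the Gal80 repressor away from the Gal4 activator, which binds upstream of GAL1, GAL10, GAL7 and GAL2. Promoters of active yeast genes are usually depleted of nucleosomes, and ribosomal protein promoters are among the most open. Chromatin near the chromosome ends can be silenced by the Sir proteins, which is known to keep some subtelomeric genes low. No library of total genomic DNA was used here, so the number of copies of a region and the accessibility of each copy cannot be told apart.

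The libraries held between 10772510 and 14857400 counts in peaks, and the lowest count of any peak was 131. Both Day 3 libraries were sequenced in more than 1 run and neither Day 0 library was, so the effects of runs and of days cannot be told apart. Of 10 alpha-specific or shared mating genes only 1 had a peak, the a-factor receptor gene STE3, which is used by alpha cells. None of 7 a-specific genes had one. As most genes of the first list also lack a peak, the mating type cannot be read from these peaks. No peak was assigned to HO. The 352 most abundant peaks held 42.2% and 44.0% of the counts on Day 3 and 36.0% and 39.3% on Day 0. With 1 scaling factor per library (TMM), abundant peaks lay higher on Day 3 and scarce peaks lower. The median log2 fold change was 0.37 over the 352 most abundant peaks and -0.17 over the 352 least abundant. Across the 3515 peaks, which share the same 4 libraries, the TMM log2 fold change had a Pearson r of 0.64 with abundance and of 0.49 with GC content. After a loess curve on abundance was taken out of each library, r with abundance was -0.02 and r with GC content 0.30.

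**Figure D1:**
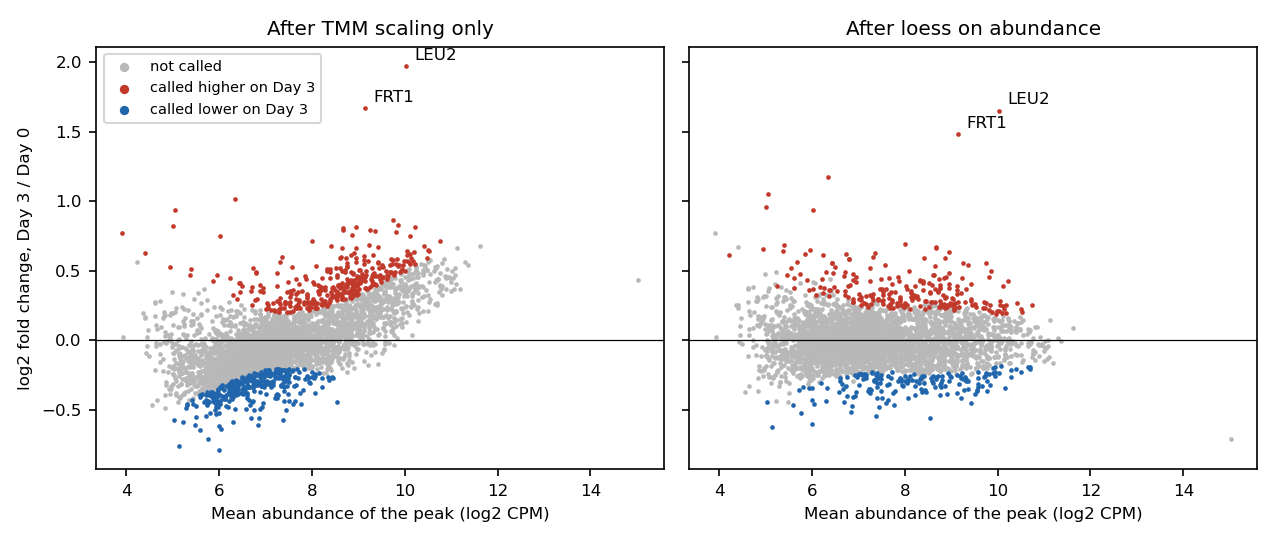
The log2 fold change of each merged peak, Day 3 over Day 0, is plotted against its mean abundance in log2 CPM, after TMM on the left and after loess on the right, with called peaks coloured. The trend with abundance (r = 0.64) is flat after loess (r = -0.02), and LEU2 and FRT1 lie apart from the other peaks in both panels.

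After loess, edgeR's quasi-likelihood test called 405 peaks (11.5%) at a Benjamini-Hochberg adjusted p under 0.05, of which 233 (6.63%) were higher on Day 3 and 172 (4.89%) lower. After TMM alone it called 653 peaks (18.6%), 337 of them higher (9.59%) and 316 lower (8.99%). With library totals as the scale the split was 200 higher and 862 lower, around a median log2 fold change of -0.21, and with DESeq2 it was 552 higher and 339 lower. The 303 peaks called by both fits were 74.8% of the loess calls and 46.4% of the TMM calls, and each had the same direction in both. The changes were mostly small. A log2 fold change of at least 0.5 was reached by 37 of the 233 higher peaks, and of at least 1 by 4. Of the 172 lower peaks, 6 fell by 0.5 or more and 0 by 1 or more. The normalized counts of the days did not overlap in 231 of the 233 higher peaks and in 137 of the 172 lower ones. Over all peaks it was 2270 of 3515. Either direction was counted, so the 137 include peaks whose Day 3 counts lay above Day 0, such as RPL43B and HTA1. Lower peaks were also longer, with a median of 1880.5 bases, against 835 bases for higher peaks and 868 for all peaks. The 703 longest peaks (1687 to 5417 bases) held 92 of the 172 lower calls. When GC content and length entered the loess as well, 94.4% of the higher calls and 65.1% of the lower calls kept their call and direction. In what follows, a peak that rose or fell did so after loess, relative to peaks of like abundance, and levels are the deposited normalized counts. The counts of calls in each list or class are to be read beside the 6.63% of all peaks that rose and the 4.89% that fell.

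The largest rise was at LEU2, which encodes the isopropylmalate dehydrogenase of leucine synthesis. Its peak (R64, chrIII:90579-92893) spans the whole gene and the start of the leucine tRNA gene SUP53. It held 20391 and 20979 normalized counts on Day 3, against 4943 and 5417 on Day 0. Both Day 3 libraries lay far above both Day 0 libraries, and the ratio of the means was 3.99. The log2 fold change was 1.65 (SE 0.063, adjusted p = 1.73e-08 from edgeR). Nothing of this size was seen next to it. The neighbouring peaks at NFS1, a cysteine desulfurase (log2 fold change 0.24), and DCC1, of a cohesion clamp loader (0.19), were not called. The peak at YCL020W on the other side was not called either (-0.06). The 300 bases before the LEU2 start are shown because they hold a match to the motif of Leu3, the activator of leucine genes (CCG and CGG with 4 bases between, both strands, present in 8.22% of all peaks). The match is in capitals and begins 198 bases upstream of the start. Of the 289 peaks with this motif, 22 rose (7.61%) and 21 fell (7.27%), beside 6.63% and 4.89% of all peaks. Their median length was 1810 bases, against 868 for all peaks.
LEU2, chrIII:91024-91323, R64, plus strand: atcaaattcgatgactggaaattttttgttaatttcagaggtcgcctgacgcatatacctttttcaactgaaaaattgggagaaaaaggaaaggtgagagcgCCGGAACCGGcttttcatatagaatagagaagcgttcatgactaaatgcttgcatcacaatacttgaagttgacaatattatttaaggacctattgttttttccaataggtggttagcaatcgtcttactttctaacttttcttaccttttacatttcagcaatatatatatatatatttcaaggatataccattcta

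A peak at FRT1 (chrXV:924661-925823) was the other that stood apart. It covers the starts of FRT1, an endoplasmic reticulum membrane protein, and of MYO2, the type V myosin that carries vesicles to the bud. It held 10460 and 11136 normalized counts on Day 3, against 3378 and 3281 on Day 0. The days did not overlap and the ratio of their means was 3.24, with a log2 fold change of 1.48 (SE 0.072, adjusted p = 1.68e-07 from edgeR). The next peaks, at PRO2 of proline synthesis (-0.20) and SNC2, a vesicle SNARE (-0.18), were not called. The sequence between both genes is shown for its match to the Reb1 motif (TTACCCG, both strands, in 15.3% of all peaks). The match is given in capitals and begins 334 bases upstream of MYO2. Of the 537 peaks with this motif, 22 rose and 41 fell.
FRT1 and MYO2, chrXV:925251-925550, R64, plus strand: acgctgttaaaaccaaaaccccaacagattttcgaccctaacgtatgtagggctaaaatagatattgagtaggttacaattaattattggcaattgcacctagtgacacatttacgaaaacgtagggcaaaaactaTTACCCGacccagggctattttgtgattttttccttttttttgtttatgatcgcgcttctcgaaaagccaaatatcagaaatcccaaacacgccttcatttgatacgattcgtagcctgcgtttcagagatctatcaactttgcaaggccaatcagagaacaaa

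Both peaks stayed above their Day 0 level in every later library. The LEU2 peak held 18356 and 17646 normalized counts at Day 7, then 15505 and 14109 at Day 10 and finally 14481 and 16836 at Day 28. The FRT1 peak held 10964 and 10760 at Day 7, then 8375 and 7435 at Day 10 and finally 8805 and 9322 at Day 28. The methods give the strain a mutant leu2 allele, and reads were counted here on the reference sequence of LEU2. None of the FRT1 windows of 100 bases occurs elsewhere in the reference, and 5.42% of the LEU2 windows do.

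**Figure D2:**
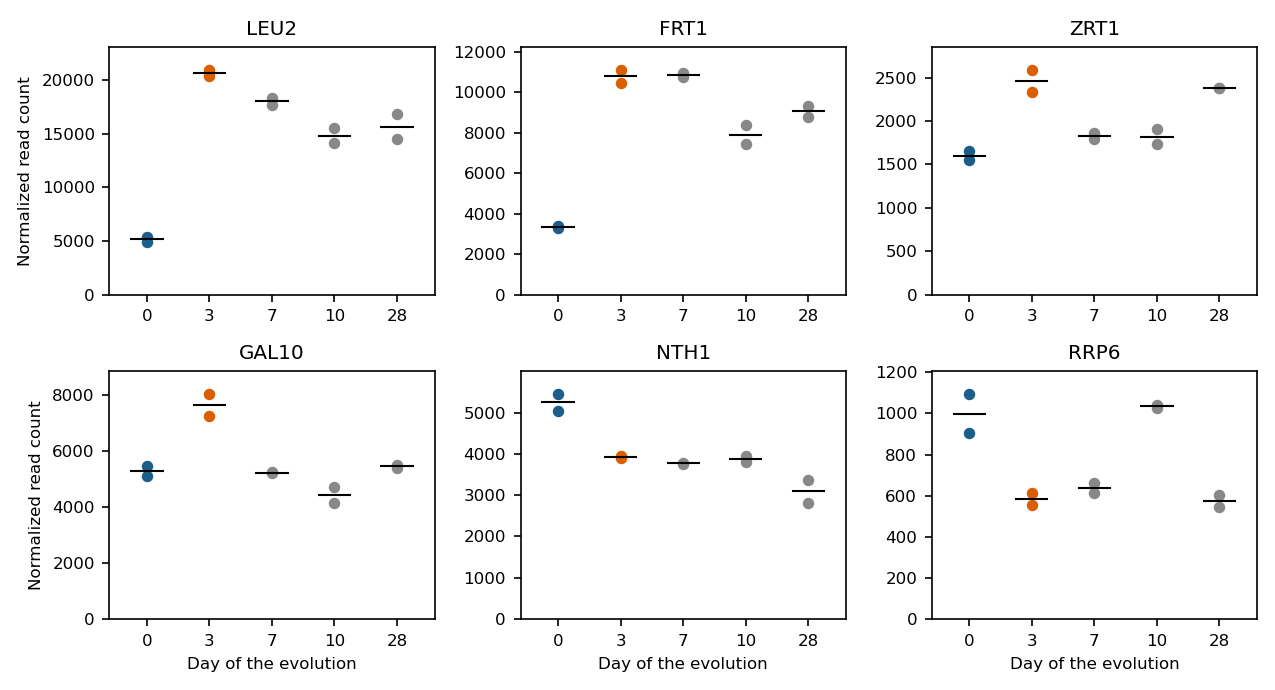
Normalized read counts of 6 peaks are shown on each sampled day of the evolution, with a point per library, a bar for the mean of the 2 libraries, Day 0 in blue, Day 3 in orange and later days in grey. LEU2 and FRT1 stay above Day 0 to Day 28, GAL10 is highest on Day 3, and NTH1 stays below Day 0.

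The galactose genes had 5 peaks, of which 1 rose and 0 fell. This was the peak between GAL10, the UDP-galactose epimerase, and GAL1, the galactokinase (chrII:278332-279025). It held 7256 and 8028 normalized counts on Day 3, against 5096 and 5471 on Day 0, without overlap. Its log2 fold change was 0.30 (SE 0.064, adjusted p = 0.0129 from edgeR), and it was not called when either Day 0 library was left out (highest adjusted p = 0.0612). The reporter carries a further GAL1 promoter, whose reads cannot be told apart from those of the native locus. The promoter peak of the transporter GAL2 held 5935 and 6804 normalized counts on Day 3 and 4852 and 4929 on Day 0. Its difference was called after TMM (log2 fold change 0.36) but not after loess (0.18, adjusted p = 0.114 from edgeR). A shorter peak inside GAL2 had a log2 fold change of 0.09, the repressor gene GAL80 of 0.17 and the transferase gene GAL7 of -0.08, and none of these was called. The peaks that cover the starts of the sensor GAL3 (-0.14) and the activator GAL4 (-0.22) were assigned to other genes and were not called. The segment of the GAL10 peak with Gal4 motifs is shown because the reporter under selection uses the GAL1 promoter. Capitals mark the 3 matches to CGG and CCG with 11 bases between (both strands), and 8.36% of all peaks hold such a match.
GAL10 and GAL1, chrII:278541-278790, R64, plus strand: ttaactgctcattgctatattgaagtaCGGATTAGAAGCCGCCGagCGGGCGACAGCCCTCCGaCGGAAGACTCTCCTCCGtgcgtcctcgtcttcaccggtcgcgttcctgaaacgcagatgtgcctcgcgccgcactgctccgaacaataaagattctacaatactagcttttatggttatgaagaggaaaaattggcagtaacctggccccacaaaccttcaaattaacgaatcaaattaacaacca
The same motif was found in rises and falls alike. Of the 294 peaks with this motif, 24 were called higher and 25 lower, with a median log2 fold change of -0.02.

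The nutrient permease list had 5 of 30 peaks higher and 1 lower, a median log2 fold change of 0.12 beside -0.01 for all peaks. It had 2 rises without d0b and between 4 and 6 without each other library. The high-affinity zinc transporter gene ZRT1 held 2336 and 2593 normalized counts on Day 3, against 1549 and 1651 on Day 0. Its log2 fold change was 0.63 (SE 0.077, adjusted p = 0.000897 from edgeR). The copper transporter gene CTR1 held 1604 and 1358 on Day 3, against 1271 and 979 on Day 0. Its days were closer to each other than those of ZRT1 and did not overlap, with a log2 fold change of 0.49 (SE 0.10, adjusted p = 0.0133 from edgeR). Its call was lost without d0c. A promoter peak of FET4, a low-affinity iron transporter, rose by 0.36, and the purine-cytosine permease gene FCY2 by 0.24. This FET4 peak lies 8.46 kb from a chromosome end, the ZRT1 peak 20.3 kb and the CTR1 peak 162 kb. A larger share of peaks near ends rose, as given below. Other metal transporter peaks of the list, at ZRT2 (0.18), SMF1 (0.05) and a shorter FET4 peak (0.17), were not called. The peak that fell was at MUP3, a methionine permease (-0.34). This peak spans 3088 bases, also covers the starts of CBP2 and YHL037C, and was not called after TMM (-0.20). The ZRT1 promoter is shown for its match to the motif of the zinc-responsive activator Zap1 (ACCTT and AAGGT with 1 base between), which 10 of the 3515 peaks hold. The CTR1 promoter is shown for 2 matches to that of the copper-responsive activator Mac1 (TTTGCTCA), held by 5.15% of peaks. Both motifs were searched on both strands, were added after the values were seen, and are in capitals.
ZRT1, chrVII:20618-20877, R64, plus strand: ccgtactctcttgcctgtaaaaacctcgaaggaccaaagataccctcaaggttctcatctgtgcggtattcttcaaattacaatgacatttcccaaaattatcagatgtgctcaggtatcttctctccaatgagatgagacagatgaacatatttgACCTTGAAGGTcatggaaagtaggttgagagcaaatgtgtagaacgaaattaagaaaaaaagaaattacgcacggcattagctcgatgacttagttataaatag
CTR1, chrXVI:785848-786107, R64, plus strand: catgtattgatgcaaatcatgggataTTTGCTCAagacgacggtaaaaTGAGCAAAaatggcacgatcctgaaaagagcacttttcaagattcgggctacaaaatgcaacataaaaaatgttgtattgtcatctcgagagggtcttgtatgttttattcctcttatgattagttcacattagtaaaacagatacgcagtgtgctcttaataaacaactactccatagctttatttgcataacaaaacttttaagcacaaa
Peaks with either motif moved both ways. Of the 10 peaks with the Zap1 motif, 1 rose and 1 fell. Of the 181 with the Mac1 motif, 11 rose (6.08%) and 16 fell (8.84%), beside 6.63% and 4.89% of all peaks. Peaks with the Mac1 motif had a median length of 1551 bases, against 868 for all peaks.

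The phosphate list had 2 of 15 peaks higher and 1 lower, with a median of 0.12. Its largest rise was at GIT1, the glycerophosphoinositol permease, in a peak 16.7 kb from a chromosome end. GIT1 held 5508 and 5031 normalized counts on Day 3, against 3036 and 3451 on Day 0 (log2 fold change 0.59, SE 0.079, adjusted p = 0.00153 from edgeR). Hexose transporters had 3 of 10 peaks higher and 0 lower, with a median of 0.19. None of these rises was called without d0b, and HXT7 kept its call in 1 of the 4 fits with a library left out and HXT11 in 2. They were HXT3, a low-affinity glucose transporter (0.36), HXT11 (0.26) and HXT7, a high-affinity one (0.23). HXT3 held 4598 and 5135 normalized counts on Day 3, against 3287 and 3716 on Day 0. In glycolysis and fermentation 2 of 12 peaks rose and 0 fell, both at TDH3, the main glyceraldehyde-3-phosphate dehydrogenase. The promoter peak of TDH3 held 8138 and 8478 normalized counts on Day 3, against 5247 and 5895 on Day 0 (log2 fold change 0.33). Of the 11 peaks at cyclins and cell cycle regulators, CLN1, a G1 cyclin (0.34), and YHP1, a homeobox repressor (0.35), rose and 0 fell.

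**Figure D3:**
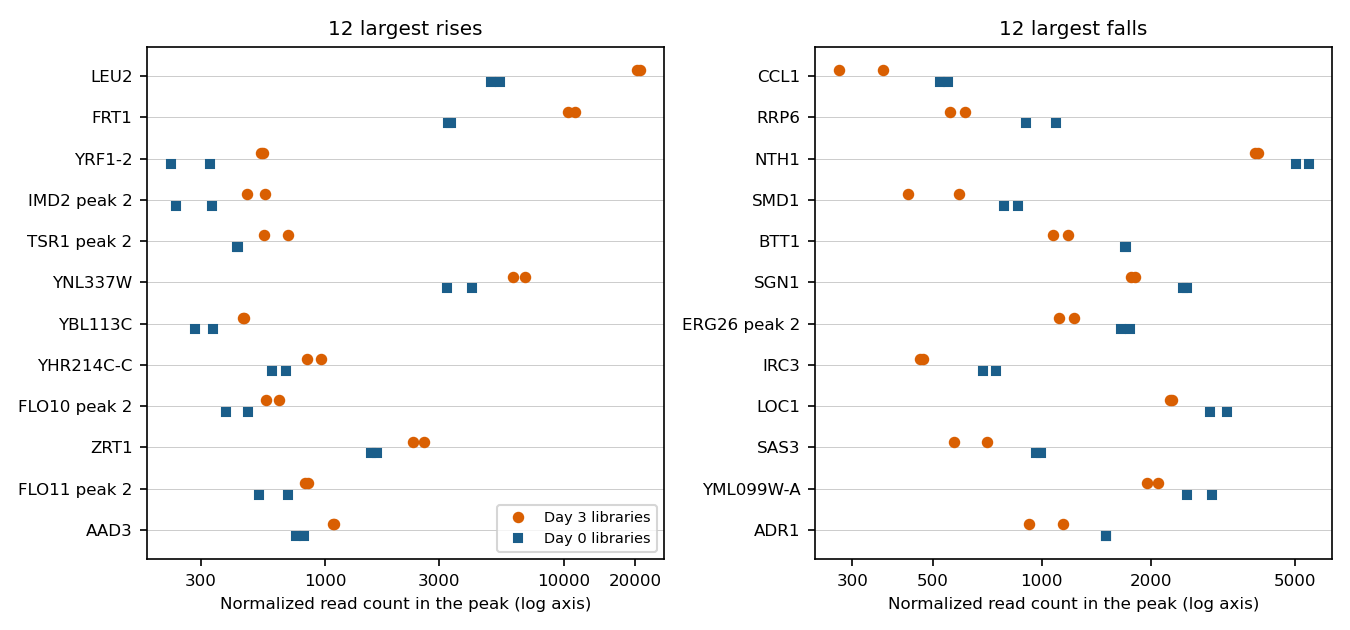
Normalized read counts, on a log axis, are shown for the 12 largest rises and the 12 largest falls called by both fits, with the 2 Day 3 libraries as orange circles above the 2 Day 0 libraries as blue squares. Peaks were chosen so that the days do not overlap, and the gap is widest at LEU2 and FRT1.

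The remaining large rises were short peaks inside genes or peaks close to a chromosome end. YRF1-2, a helicase gene of the subtelomeric repeats, held 536 and 549 normalized counts on Day 3, against 224 and 328 on Day 0 (log2 fold change 1.05). A peak inside IMD2, which encodes IMP dehydrogenase of guanine nucleotide synthesis, held 469 and 557 on Day 3, against 335 and 237 on Day 0 (0.96). Both are among the scarcest peaks, and DESeq2 called neither. After loess, DESeq2 gave 137 of the 3515 peaks no adjusted p, and these count as not called throughout. Further rises were a peak inside TSR1, a factor of small subunit assembly (0.68), and peaks at YNL337W (0.66), YBL113C (0.65), YHR214C-C (0.65) and the putative aryl-alcohol dehydrogenase gene AAD3 (0.61). The flocculin genes FLO10 and FLO11, which encode adhesins of the cell surface, rose by 0.64 and 0.62 at a second peak of each. Another 6 peaks that changed as much share at least 10% of their 100-base windows with other loci, so their reads may come from elsewhere. These were YLR466C-B (1.17), YFL067W (0.94), YJR162C (0.70), YLL066W-B (0.67), YLL065W (0.63) and YBL113W-A (0.62).

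A larger share of peaks near chromosome ends rose than the 6.63% of all peaks. Within 5 kb of an end 18 of 24 peaks rose and 0 fell, with a median log2 fold change of 0.49. Between 5 and 10 kb 19 of 41 rose and 0 fell (median 0.28), and between 10 and 20 kb 15 of 79 rose and 1 fell (0.09). At 50 kb or more from an end 151 of 3086 rose and 164 fell (-0.02). The values fell off with distance in these classes. With peaks of many repeated windows left out, 28 of the 52 peaks within 10 kb rose and 0 fell (median 0.31). Over the 4 fits that each left out 1 library, between 25 and 35 of the 65 peaks within 10 kb rose and at most 1 fell. When GC content and length entered the loess, 42 of these 65 rose and 0 fell.

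The single peaks show the spread behind these counts. The peak at GEX2, a glutathione exchanger, lies 0.18 kb from the end of chromosome XI. GEX2 held 7045 and 7649 normalized counts on Day 3, against 3805 and 4732 on Day 0 (log2 fold change 0.59). The peak at YHR217C, 5.58 kb from an end of chromosome VIII, held 9207 and 9996 on Day 3, against 5070 and 5839 on Day 0 (0.56). Neither peak overlapped between the days. YFR057W at the end of chromosome VI rose less (0.44), with 2488 and 2646 normalized counts on Day 3 and 1788 and 1986 on Day 0. Not all of these regions moved. RDS1, a zinc cluster factor 5.54 kb from an end of chromosome III, had a log2 fold change of 0.00, and ARR1, the arsenic resistance activator, one of -0.22 (adjusted p = 0.0662 from edgeR). The later levels of YHR217C were 7491 and 6466 at Day 7, then 5352 and 4697 at Day 10 and 5599 and 6206 at Day 28, lower than on Day 3 in every library. These 5 peaks were picked after their values were seen, for their place near an end.

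**Figure D4:**
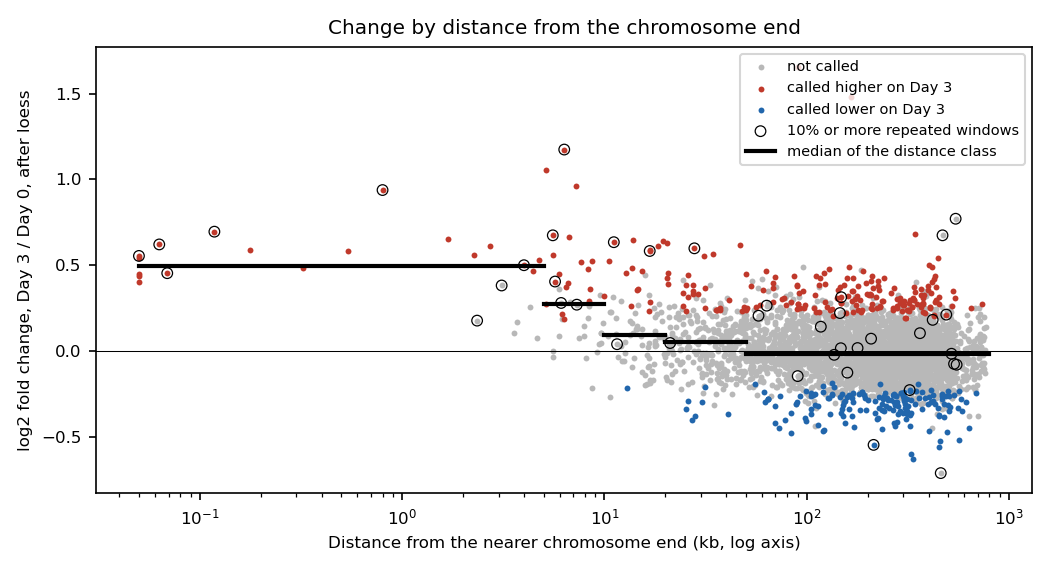
The log2 fold change after loess is plotted against the distance of each peak from the nearer chromosome end in kb on a log axis, with calls coloured, repeated peaks circled and a bar for the median of each distance class. Peaks nearer than the axis allows are drawn at its left edge, and the median falls from 0.49 within 5 kb to -0.02 at 50 kb or more.

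Cell wall mannoproteins and flocculins had 12 of 41 peaks higher and 0 lower, with a median log2 fold change of 0.21. The rises numbered 7 without d0b, 8 without d0c, 18 without d3 and 8 without d3p, with at most 1 fall. Part of this list lies near chromosome ends. Its 8 peaks within 20 kb had 6 higher calls and a median of 0.48, and its 33 other peaks had 6 higher calls and a median of 0.14. The seripauperin genes PAU10 (0.52) and PAU24 (0.47), whose products are mannoproteins of the wall, are in the first set. FLO11 and ECM33, a GPI-anchored wall protein (0.38), are in the second. The second FLO11 peak held 818 and 844 normalized counts on Day 3, against 695 and 527 on Day 0, and the second FLO10 peak 565 and 641 on Day 3, against 474 and 385 on Day 0. At FLO10 the peak at the promoter was not called (0.14).

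Most calls at cytosolic ribosomal protein genes were rises, and the few at mitochondrial ones were falls. Of the 74 peaks at cytosolic ribosomal protein genes 22 rose and 2 fell, with a median log2 fold change of 0.15. Of the 40 peaks at mitochondrial ribosomal protein genes 0 rose and 4 fell (10% beside 4.89% of all peaks), with a median of -0.12. With each library left out in turn, between 2 and 6 of these 40 fell and up to 1 rose. The 2 were left without d0c or without d3p. The calls for the cytosolic set depended on single libraries, with between 2 and 25 rises when each was left out, while its median stayed between 0.11 and 0.16. Without d0b it had 2 rises. The large subunit had 11 of 40 peaks higher and the small subunit 11 of 34. RPL20B held 5374 and 6272 normalized counts on Day 3, against 3399 and 4189 on Day 0 (0.47, adjusted p = 0.00635 from edgeR). RPS19B (0.47) and RPS0B (0.43) had rises of like size. The 2 falls were at RPS13 (-0.28), and at RPL43B (-0.21), whose peak spans 3518 bases and also covers the starts of IRT1 and SFC1. RPL43B held 17465 and 18566 normalized counts on Day 3, against 13895 and 16701 on Day 0, so it fell only relative to peaks of like abundance. It was not called after TMM (0.21) or when GC content and length entered the loess.

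Rap1 is the main activator of ribosomal protein genes. Among their peaks, 8 of the 16 with a match to its motif (CACCCA and CA with 2 bases between, both strands) rose and 0 fell, with a median of 0.23, and 14 of the 58 without it rose and 2 fell, with a median of 0.07. Without d0b 0 of the 16 and 2 of the 58 rose, and without d3p 2 of the 16 and 9 of the 58. The motif is in 4.75% of all peaks, and of these 167 peaks 26 rose (15.6%) and 13 fell (7.78%), beside 6.63% and 4.89% of all peaks. Their median length was 1454 bases, against 868 for all peaks. RPL12A is shown, picked after its values were seen, as the peak with the largest rise among the 16. It held 6922 and 7919 normalized counts on Day 3, against 4513 and 5334 on Day 0 (0.38). The match, in capitals, reads on the opposite strand.
RPL12A, chrV:53629-53878, R64, minus strand: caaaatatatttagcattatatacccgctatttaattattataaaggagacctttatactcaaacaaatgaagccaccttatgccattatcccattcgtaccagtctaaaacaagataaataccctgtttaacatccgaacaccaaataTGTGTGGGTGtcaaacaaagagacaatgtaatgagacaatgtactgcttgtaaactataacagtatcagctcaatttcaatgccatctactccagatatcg
The mitochondrial falls were at MRP2 (-0.42), MRPL51 (-0.36), SWS2 (-0.33) and RSM27 (-0.24). SWS2 held 1174 and 1092 normalized counts on Day 3, against 1464 and 1553 on Day 0, in a peak of its own. MRP2 was not called after TMM (-0.18). The MRP2 peak spans 4425 bases and also covers the starts of RHO1, MET16, NUT2 and JIP5, and that of MRPL51 covers 3 other starts. They held 6805 and 7092 (MRP2) and 3992 and 3843 (MRPL51) on Day 3, against 7498 and 7991 (MRP2) and 4451 and 4802 (MRPL51) on Day 0.

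**Figure D5:**
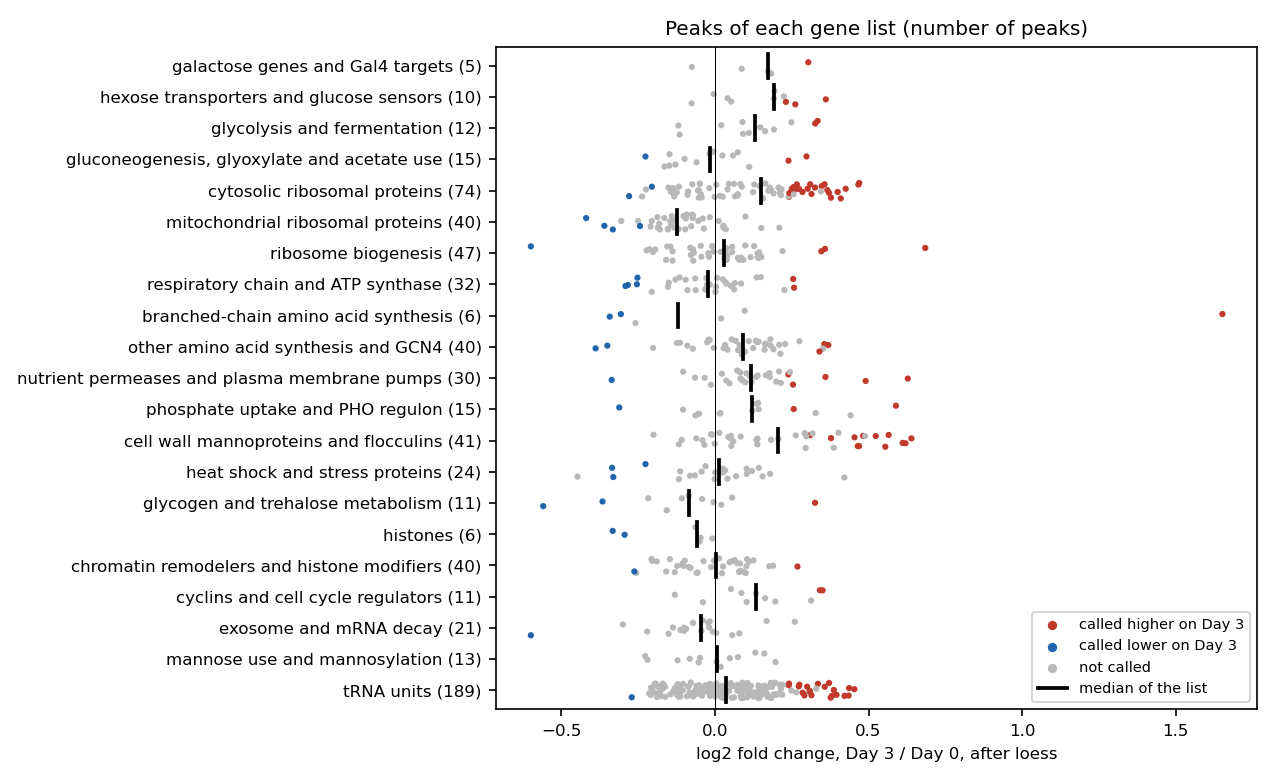
The log2 fold change after loess, Day 3 over Day 0, is shown for every peak of each gene list, with calls coloured and a bar for the median of the list, and the number of peaks beside its name. Cytosolic ribosomal proteins (median 0.15) lie to the right of mitochondrial ones (-0.12), and LEU2 lies apart at 1.65.

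tRNA genes had 21 of 189 peaks higher (11.1%) and 1 lower, around a median of 0.03, beside 6.63% higher and 4.89% lower over all peaks. The largest rises were at tT(AGU)C (0.45), tT(UGU)G1 (0.44, at its second peak) and tI(AAU)I2 (0.44, at its second peak). tT(AGU)C held 3256 and 3399 normalized counts on Day 3, against 2254 and 2486 on Day 0. By amino acid, glycine tRNA genes had the most rises, 4 of 14 peaks, and were picked after the values were seen. Phenylalanine tRNA genes had 2 of 8 peaks higher, and those of lysine 2 of 8 with 1 lower. With each library left out in turn, between 9 and 18 tRNA peaks rose and up to 12 fell, the 12 without d3. Ribosome biogenesis genes had 3 of 47 peaks higher (6.38%, near the share of all peaks) and 1 lower (median 0.03).

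The largest falls were smaller than the largest rises. CCL1, the cyclin partner of the TFIIH kinase, held 365 and 275 normalized counts on Day 3, against 523 and 551 on Day 0 (log2 fold change -0.63, SE 0.15, adjusted p = 0.0192 from edgeR). This short peak lies at the 3′ end of CCL1 and lost its call without either d0c or d3p, and with DESeq2. RRP6, the nuclear exosome exonuclease, fell in its promoter. RRP6 held 614 and 557 normalized counts on Day 3, against 1095 and 903 on Day 0 (-0.60, SE 0.094, adjusted p = 0.00342 from edgeR). The call at RRP6 held with each library left out (largest adjusted p = 0.0424 from edgeR). The RRP6 peak held 614 and 660 at Day 7, then 1025 and 1043 at Day 10, within the Day 0 range, and 547 and 602 at Day 28.

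NTH1, the neutral trehalase that breaks down trehalose, held 3943 and 3891 normalized counts on Day 3, against 5040 and 5453 on Day 0. Its log2 fold change was -0.56 (SE 0.067, adjusted p = 0.000872 from edgeR), and the 6 later libraries held between 2807 and 3945. The peak, of 2032 bases, lies over the 3′ part of NTH1 and beyond it, not at its promoter. Falls at promoters or shared starts were at SMD1, a core splicing protein (-0.52), BTT1, of the nascent chain complex (-0.52), ERG26 of ergosterol synthesis (-0.47, second peak), LOC1 of large subunit assembly (-0.46), SAS3, a histone acetyltransferase (-0.46), and YML099W-A (-0.45). BTT1 held 1184 and 1073 normalized counts on Day 3, against 1697 and 1704 on Day 0. Falls at transcription ends were at SGN1, a poly(A)-binding protein (-0.48), IRC3, a mitochondrial helicase (-0.47), and ADR1, an activator of genes for ethanol use (-0.44). A fall at RUF5-2 (-0.55) lies in the repeated CUP1 array, where 87.4% of windows occur elsewhere. Of the 12 largest falls, 8 were called with every library left out in turn, against 10 of the 12 largest rises.

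Some falls were seen only relative to peaks of like abundance. The histone list had 0 of 6 peaks higher and 2 lower. HHT1, of histone H3, held 9988 and 10242 normalized counts on Day 3, against 9604 and 10543 on Day 0, and the days overlap (-0.33 after loess, -0.02 after TMM). HHT1 and HTA1 (-0.29), of histone H2A, lie in peaks of 4116 and 3921 bases, and neither was called when GC content and length entered the loess. Stress proteins had 0 of 24 peaks higher and 3 lower, at HSP10, a mitochondrial co-chaperonin (-0.34), CTA1, the peroxisomal catalase (-0.33), and ALD3, an aldehyde dehydrogenase (-0.23). Glycogen and trehalose genes had 1 of 11 higher, PGM1, a phosphoglucomutase (0.33), and 2 lower, NTH1 and GLC3, the glycogen branching enzyme (-0.37 after loess, -0.07 after TMM). In the branched-chain amino acid list LEU2 rose, while LEU1, an isomerase of the same path (-0.31), and ILV5 (-0.34 after loess, 0.04 after TMM) fell. LEU1 held 1964 normalized counts in each Day 3 library, against 2415 and 2430 on Day 0.

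In the other lists the calls went both ways or were few, beside 6.63% higher and 4.89% lower over all peaks. Other amino acid genes had 3 of 40 peaks higher, HIS4 (0.37), LYS21 (0.36) and SER1 (0.34), and 2 lower, MET14 (-0.39) and TYR1 (-0.35). The SER1 peak also covers the starts of RPS30B, a cytosolic ribosomal protein gene, and FYV12. The MET14 peak spans 3478 bases and covers the starts of MRP17 and DID4. It was not called after TMM (-0.20) or when GC content and length entered the loess. The respiratory chain list had 2 of 32 higher, ATP4 (0.26) and NDE1 (0.25), and 4 lower, among them COX5B (-0.29) and COX5A (-0.28), which encode forms of a cytochrome oxidase subunit. COX5A was not called after TMM (-0.11) or when GC content and length entered the loess, and COX5B kept its call in 1 of the 4 fits with a library left out. Without d0b, and likewise without d3p, 0 peaks of this list rose and 0 fell. Genes of gluconeogenesis and acetate use had 2 of 15 higher, ACO1, the aconitase (0.30), and PCK1 (0.24), and 1 lower, ALD3. The call at PCK1 was lost with any 1 library left out. Chromatin regulators had 1 of 40 higher, ADA2 of the SAGA complex (0.27), and 1 lower, RSC1 of the RSC remodeler (-0.26). The ADA2 peak also covers the start of RPS17B, a cytosolic ribosomal protein gene. With each library left out, the log2 fold change lay between 0.24 and 0.30 at ADA2 and between -0.32 and -0.19 at RSC1. Of 21 peaks at exosome and mRNA decay genes 0 rose and only RRP6 fell, and of 13 at mannose genes 0 rose and 0 fell.

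Peaks that the merged names give as called on Day 3 and not on Day 0 had 26 of 158 higher and 0 lower, with a median of 0.15. Those called on Day 0 and not on Day 3 had 0 of 153 higher and 17 lower, with a median of -0.16. After TMM the Day 3 class had 18 higher and 3 lower (median 0.00), and the Day 0 class 0 higher and 73 lower (-0.32). The names and the counts come from the same reads. Promoter peaks had 189 of 3001 higher (6.30%) and 140 lower (4.67%), near the 6.63% and 4.89% of all peaks. Peaks at transcription ends had 27 of 376 higher (7.18%) and 24 lower (6.38%). Exon peaks had 12 of 114 higher and 6 lower, with a median of 0.09. By chromosome the median ranged between -0.03 on chromosome XIII and 0.06 on chromosome I. Chromosome III had 13 of 95 peaks higher and 1 lower, of which 6 and 1 were among its 85 peaks at 20 kb or more from an end. The ribosomal DNA peak at RDN5-1, the most abundant of all, held 502574 and 459470 normalized counts on Day 3, against 358222 and 342823 on Day 0. It was not called (-0.71 after loess, adjusted p = 0.057 from edgeR, and 0.43 after TMM), and 42.0% of its windows are repeated.

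The number of calls rested on single libraries. After loess it was 129 without d0b, 260 without d0c, 520 without d3 and 197 without d3p, where the lone library of a day is assumed to vary like the other day.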

How the data were processed

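Reads were trimmed by the authors with Trim Galore 0.5.0, mapped with Bowtie2 2.2.9 to R64 and used for peak calls per day with MACS2 2.1.1. The authors merged the peaks with bedtools 2.30.0 and deposited raw counts per merged peak from featureCounts 1.6.3. The deposited normalized counts are a signal, each library's raw counts scaled by a size factor of its own, and the labels name DESeq2 1.30.1. The deposited HOMER annotation gives peak positions and assigned genes. Removal of duplicate reads is not given in the sources used here. Every sample column was matched to a library (0 left over), and 1 peak name cut short in the count tables was matched by its beginning.

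Raw counts of the 4 libraries were tested with edgeR 4.0.16 in R 4.3.3, by quasi-likelihood with Benjamini-Hochberg adjustment over the 3515 peaks, and with loess offsets on abundance (span 0.3, by limma 3.58.1) or TMM. Standard errors are the log2 fold change over the root of F. DESeq2 1.42.0 was an alternative. Data were simulated with 200 peaks of 3515 changed by 0.5 on the log2 scale and an abundance trend. The loess fit recovered 195 with 18 false calls, and TMM 175 with 1131. The simulated trend depended on abundance alone and the spread came from the loess fit, so loess was favoured in advance. The rate of false calls in the real data cannot be read from it. Named are the 12 largest rises and falls called by both fits without overlap between days and with under 10% of 100-base windows found elsewhere, like peaks over that limit as uncertain, every galactose peak, and up to 3 called peaks per direction in each list. Other peaks the text names (among them FCY2, ECM33, PAU10, PAU24, RSM27, RPL12A, RDN5-1 and neighbours of LEU2 and FRT1) were picked after their values were seen. The members and lists were chosen with earlier results of these data known. Sequences come from RefSeq's R64 genome. The sequence of 1 promoter is not reported here. Alternatives covered the normalization, the test, filters, thresholds, depth, the libraries fitted and each library left out. Distance classes without repeated peaks, the split of the cell wall list by position and the Zap1 and Mac1 motifs were added after seeing the data. Figures were drawn in Python.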

Additional observations from a re-analysis of the deposited data

How the results depend on the processing

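With 2 libraries per day the spread between libraries limits precision more than depth does. No paired analysis was possible because the labels number no replicates of these days (d3 and d3p, d0b and d0c) and so pair none. The 405 calls after loess became 653 under TMM without loess, 107 at an adjusted p under 0.01, and 43 with a log2 fold change of at least 0.5. They ranged from 129 (without d0b) to 520 (without d3) when each library was left out. The 653 calls after TMM became 405 after loess, 1062 with library totals, 332 at an adjusted p under 0.01 and 110 with a log2 fold change of at least 0.5. They ranged from 120 (without d3p) to 801 (without d0c), with 237 without d0b and 402 without d3. The other alternatives moved neither count by more than 1.5 times. Over the named peaks and the 4 fits with a library left out, 255 results kept their side of the threshold and 93 lost their call, and over the other alternatives 808 kept it, 34 lost it and 2 gained one. TMM without loess turned the sign of ALD3 (0.065), RPL43B (0.21), ILV5 (0.040), HTA1 (0.037) and tK(UUU)D (0.029), and no other alternative turned the sign of a named peak that was called. The cause was not tested.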
